A study of Rattus norvegicus with 12 samples.

Results

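Chronic restraint was set against no stress within 1 inbred rat strain, F344 (a Fischer line), using whole blood RNA. The libraries were chosen by their labels alone, which name strain, treatment and replicate: 3 F344 libraries after chronic restraint stress (CRS) and 3 without stress (NS), 6 of the 12 libraries of the series. Of 17337 genes in the count tables, 2781 passed a low count filter and were tested. The study asked how 2 strains, F344 and Wistar Kyoto (WKY), differ in their answer to restraint, in an older fear memory and in the blood. The rats came from Envigo. All rats were males that entered the experiment at 70 to 90 days of age and went through contextual fear conditioning, in which a place is paired with a shock, followed by 4 weeks in the home cage. CRS rats were then confined singly in ventilated plastic cones for 2 h a day over 2 weeks, while NS rats were left alone in the home cage. Both groups were conditioned a second time and decapitated 24 h after its second day, and blood went straight into RNA-preserving PAXgene tubes. The NS group is therefore not naive to stress: it had the same conditioning, housing and killing as the CRS group. Whether the 3 libraries of a group are 3 rats is not in the labels, and the p-values given here speak only for the spread among libraries, which may be technical.

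As background, restraint activates the hypothalamic-pituitary-adrenal axis and the sympathetic nerves, which release glucocorticoids and catecholamines into the blood. Glucocorticoids act through a nuclear receptor in white cells, where they induce genes such as Fkbp5 and Tsc22d3 and alter how lymphocytes, neutrophils and monocytes are shared between blood and tissue. Whole blood RNA also carries large amounts of globin message from young red cells, and message from platelets, which have no nucleus and inherit their RNA from megakaryocytes. In bulk blood, fewer cells of a type and less RNA per cell cannot be told apart.

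The 2 groups differed in depth before any gene was compared. Counts outside the 3 most abundant features, which took 89.1% to 94.6% of gene counts, came to 220499, 195564 and 90796 in NS replicates 1, 2 and 3 and to 345197, 281942 and 419789 in CRS replicates 1, 2 and 3. By these counts every CRS library was deeper than every NS library (two-sided exact permutation p = 0.1, the smallest that 3 against 3 allows). NS 2 and NS 3 stood apart from the other 4 libraries: NS 3 sat at 33.3 on the first principal component (41.2% of the variance) and NS 2 at 30.1 on the second (29.8%). One count was worth 1.14 CPM in NS 3 and 0.609 CPM in NS 2, against 0.202 to 0.341 CPM in the other 4, so low levels in those 2 libraries rest on few counts. Levels are given in CPM, a count's share of its library total after TMM rescaling, in the order replicate 1, 2, 3. Those rescaled totals overlapped between the groups, at 3626149 in NS 1 and 2929363 in CRS 2. Markers of blood were present, with globin genes at 23620 to 48750 CPM in sum per library. Lists of tissues that decapitation could carry over were lower, at 16.8 to 22.3 CPM for 18 brain and nerve genes, 9.34 to 28.6 CPM for 17 skeletal muscle genes, 1.14 to 6.70 CPM for 15 skin, thymus and fat genes, 2.64 to 5.48 CPM for 14 endothelial genes and 0.406 to 1.37 CPM for 11 pituitary and thyroid genes. Of these, 4 endothelial and 4 pituitary and thyroid genes had 0 counts in all 6 libraries, as did 1 brain, 1 muscle and 2 skin, thymus and fat genes.

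Of the gene lists with at least 5 tested members, the platelet list was the 1 whose tested members all had positive fold changes, and Npy had the smallest p among genes with positive ones. Promoters are shown for Npy and for platelet members with an unadjusted edgeR p under 0.05, so that letters upstream can be read beside levels. Of the 4 such platelet members, Clu and Vwf have no promoter in the table used, which leaves Clec1b and Gp1ba. The printed promoters are the 250 bases before the annotated start in RefSeq's GRCr8 assembly, 5′ to 3′ on the gene's own strand. The counts were made on build rn6. Capitals mark 2 sets of letters searched on both strands, with overlapping matches counted: AGATAA (also with a final G, a leading T, or both), which GATA factors of the megakaryocyte and red cell lines are known to bind, and AGGAAG (also with a leading C), which ETS factors are known to bind. Clec1b (chr4:164533859-164534108, plus strand) held 1 GATA and 2 ETS matches, Gp1ba (chr10:55851309-55851558, plus strand) held 3 and 2, and Npy (chr4:80211861-80212110, plus strand) held 0 of either.
Clec1b: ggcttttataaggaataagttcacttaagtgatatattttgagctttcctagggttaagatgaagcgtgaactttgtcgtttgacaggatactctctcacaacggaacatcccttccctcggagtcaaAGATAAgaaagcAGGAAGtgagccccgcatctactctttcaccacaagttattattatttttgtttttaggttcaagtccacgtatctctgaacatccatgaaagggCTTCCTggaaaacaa
Gp1ba: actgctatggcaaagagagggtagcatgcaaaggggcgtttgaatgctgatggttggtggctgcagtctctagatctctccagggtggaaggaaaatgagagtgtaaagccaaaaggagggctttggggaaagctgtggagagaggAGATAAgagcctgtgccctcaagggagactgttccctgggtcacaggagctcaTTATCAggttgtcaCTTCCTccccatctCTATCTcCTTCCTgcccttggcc
Npy: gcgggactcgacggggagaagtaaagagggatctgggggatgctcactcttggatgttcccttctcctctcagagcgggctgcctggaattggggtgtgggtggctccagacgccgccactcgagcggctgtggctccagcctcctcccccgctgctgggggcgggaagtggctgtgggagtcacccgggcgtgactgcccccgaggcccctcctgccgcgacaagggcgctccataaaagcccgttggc
Among all 33469 promoters of that table, 27.0% held a GATA match and 39.4% an ETS match within the same 250 bases. Of the 21 tested platelet genes, 13 had a promoter in the table, and 5 of these (38.5%) held a GATA match and 11 (84.6%) an ETS match. These matches describe letters in a window and are neither binding sites nor causes.

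Across all genes, no single transcript passed the threshold. EdgeR's quasi-likelihood test called 0 of 2781 genes (0%) at an adjusted p under 0.05, and 130 (4.67%) had an unadjusted p under 0.05, 43 (1.55%) with more message after CRS and 87 (3.13%) with less. DESeq2 also called 0, with 30 and 67 genes at an unadjusted p under 0.05. Limma-voom with quality weights called 2, Npy and Ppp4r2 (0.0719%), with 95 and 188 at an unadjusted p under 0.05. EdgeR without the count filter called 5 of 15012 genes (0.0333%), and without NS 1 it called 5 of 3040 (0.164%). Fold changes were centred near 0: 1418 genes (51%) were positive, the median log2 fold change was 0.02, and the range ran from -3.74 to 2.62. Groups did not overlap, with all CRS libraries above all NS libraries, in 173 genes (6.22%), and the opposite way in 158 (5.68%). These shares are the background for counts of list members in the main fit. For counts from other fits, the share of all tested genes with positive fold changes is not given. Where tested, the median log2 fold change of the 2781 genes was 0.06 without NS 2 and NS 3. It was -0.02 with a minimum count of 20. A gene can pass the filter through 1 group of 3 alone, so counts and medians over a list's tested members are descriptions.

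**Figure D1:**
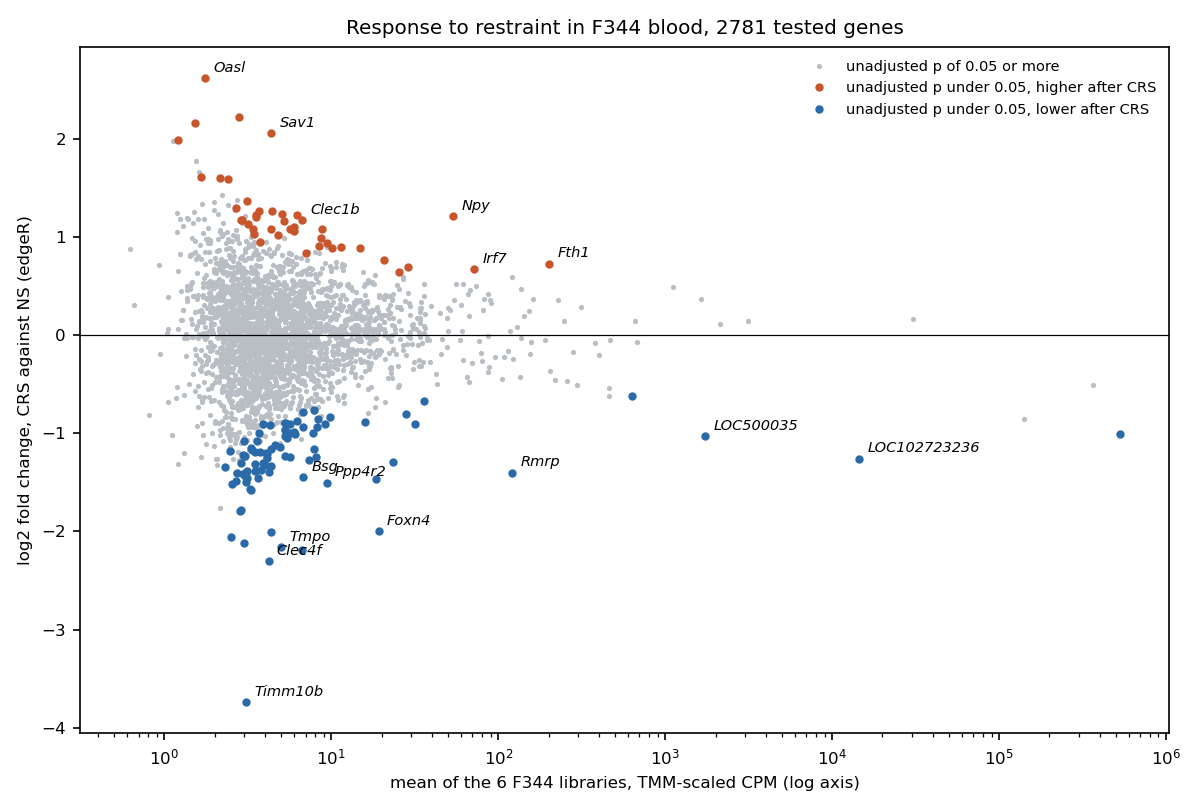
Log2 fold change of CRS against NS in F344 blood (edgeR) by mean level over the 6 libraries (TMM-scaled CPM, log axis), 1 point per tested gene. Coloured points have an unadjusted p under 0.05, 43 with positive and 87 with negative fold changes; the farthest from 0 are Oasl at 2.62 and Timm10b at -3.74, both at low levels.

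Npy encodes neuropeptide Y, a transmitter released with noradrenaline from sympathetic nerves and also made in blood cells and megakaryocytes of the rat. It was at 53.0, 21.3 and 19.4 CPM without stress and at 74.5, 90.1 and 64.5 CPM after CRS. All CRS libraries lay above all NS libraries, and NS 1 lay closest to the CRS group. The log2 fold change of Npy was 1.21 (SE 0.350, edgeR adjusted p = 0.530). Its size followed the NS libraries: it was 1.91 and past the threshold without NS 1, 1.01 without NS 2, and 0.59 without NS 2 and NS 3. With all libraries kept, limma-voom and edgeR without the count filter also called Npy. Slc6a4, the serotonin transporter that platelets also carry, was the other tested gene of the neuropeptide and catecholamine list (2 of 29), at 1.38, 0.609 and 0 against 1.82, 2.73 and 2.44 CPM (log2 1.26, or 2.44 without NS 1 and 0.78 without NS 2 and NS 3), from 6 NS and 29 CRS counts.

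Sav1, a scaffold of the Hippo kinases, was at 1.93, 0 and 3.43 CPM without stress and at 7.07, 7.85 and 5.89 CPM after CRS, again without overlap. The NS values rest on 7, 0 and 3 counts, and the log2 fold change of 2.06 had an SE of 0.703 (edgeR adjusted p = 0.851). The other 5 tested genes of the Hippo list lay between -0.70 for Mob1a, a kinase activator, and 0.42. Zmynd8, a chromatin reader, was at 5.24, 4.26 and 8.01 against 8.88, 15.4 and 11.2 CPM (log2 1.08, SE 0.386). Arhgap4, a GTPase-activating protein, was at 7.72, 4.26 and 4.58 against 13.7, 11.6 and 10.4 CPM (log2 0.99). Pik3r5, a regulatory subunit of phosphoinositide 3-kinase gamma, was at 2.76, 4.87 and 3.43 against 8.68, 7.85 and 6.09 CPM (log2 1.08). In none of these 3 genes did the groups overlap, and none passed the threshold (edgeR adjusted p = 0.918 for each). Without NS 2 and NS 3 the fold changes of Zmynd8 and Pik3r5 were 1.21 and 1.503, and that of Arhgap4 was 0.69.

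**Figure D2:**
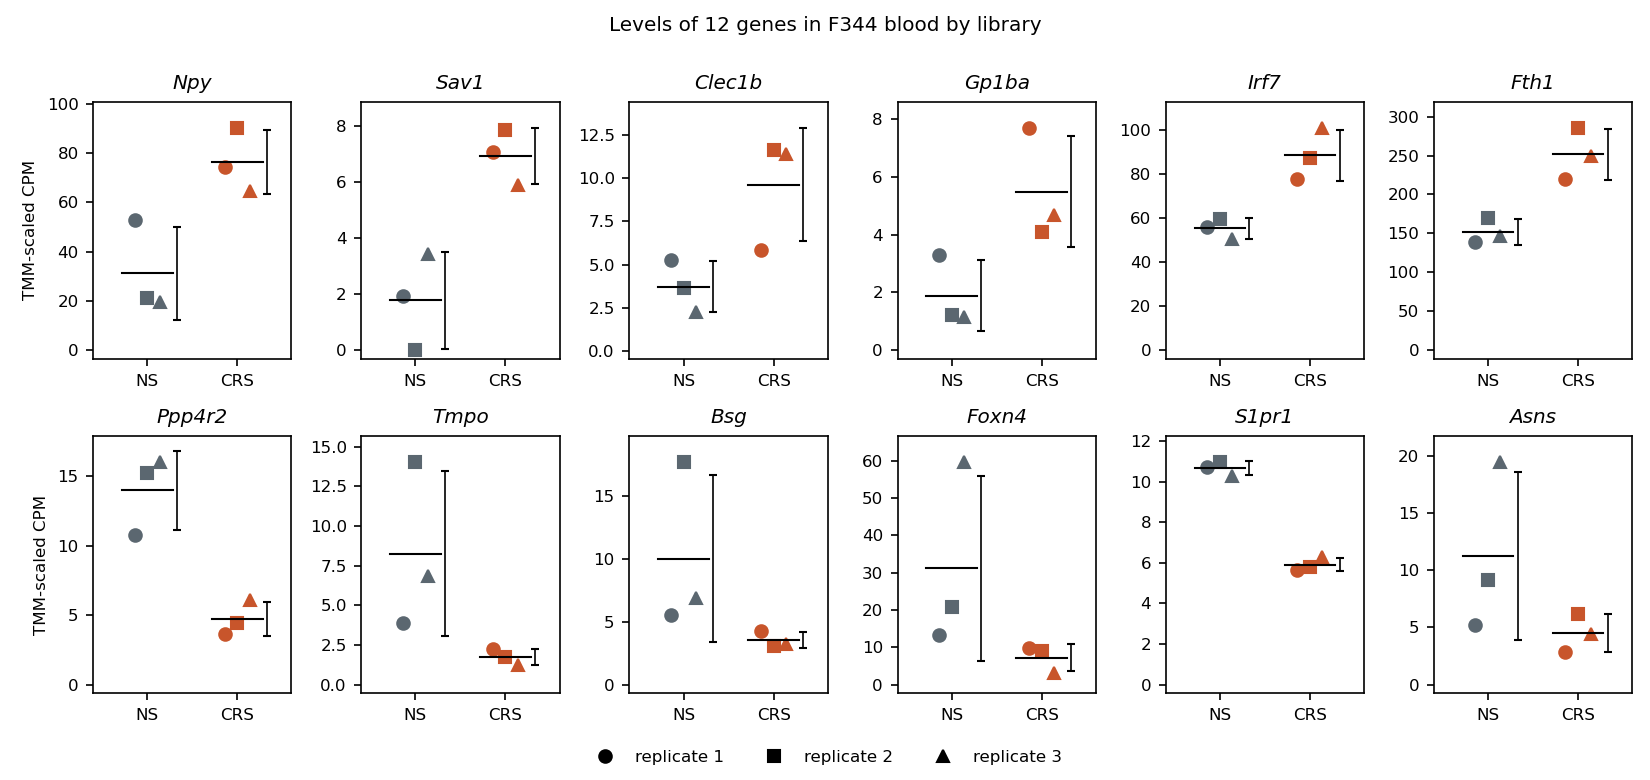
Level of 12 genes (TMM-scaled CPM, linear axes from 0) in each NS and CRS library of F344 blood; points are libraries, the line is the mean of 3 and the bar is ± 1 SD. In all genes but Asns the groups do not overlap; Npy and Gp1ba in NS 1 lie nearer the CRS group than NS 2 and NS 3 do, and S1pr1 is nearly constant within each group.

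Ppp4r2 had the smallest p among genes averaging at least 5 CPM. It encodes the regulatory subunit that steers protein phosphatase 4, an enzyme of DNA repair and centrosomes, to its substrates. It was at 10.8, 15.2 and 16.0 CPM without stress and at 3.63, 4.44 and 6.09 CPM after CRS, with no overlap. The log2 fold change of Ppp4r2 was -1.501 (SE 0.381, edgeR adjusted p = 0.249). It ran from -1.74 to -1.32 as single libraries were left out and was -1.11 without NS 2 and NS 3. Of the 10 tested subunits of phosphatases 4 and 2A, 4 were positive and 6 negative (median -0.14). Ppp2r5a, a targeting subunit of phosphatase 2A, was the other without overlap, at 7.17, 7.92 and 9.15 against 3.84, 5.12 and 5.07 CPM (log2 -0.75), while the phosphatase 4 scaffolds Ppp4r3a and Ppp4r3b were at -0.25 and -0.18.

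Smaller p than that of Ppp4r2 was seen in 3 genes averaging under 5 CPM, which are named after their values were seen. Tmpo, which encodes the lamina-associated polypeptides of the nuclear envelope, was at 3.86, 14.01 and 6.86 against 2.22, 1.71 and 1.22 CPM (log2 -2.16, edgeR adjusted p = 0.210). Timm10b, a chaperone of mitochondrial protein import, was at 2.21, 12.8 and 2.29 against 0.202, 0.341 and 0.609 CPM (log2 -3.74, edgeR adjusted p = 0.210), from 31 NS and 5 CRS counts. Clec4f, a lectin best known from liver macrophages, was at 3.03, 4.87 and 13.7 against 0.606, 1.37 and 1.62 CPM (log2 -2.30, edgeR adjusted p = 0.249). The groups did not overlap in any of them, and in each a single library, NS 2 or NS 3, was far above the others. Their log2 fold changes were -1.09, -2.34 and -1.27 without NS 2 and NS 3.

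The remaining leading genes with negative fold changes fell into those with even NS levels and those that rested on NS 2 or NS 3. Sec14l1, a phospholipid-transfer protein that restrains RIG-I signalling, was at 12.7, 10.96 and 10.3 against 3.23, 5.46 and 6.09 CPM (log2 -1.24). Ehmt1, a histone H3 lysine methyltransferase, was at 9.65, 12.2 and 9.15 against 4.85, 5.12 and 3.04 CPM (log2 -1.27). Kbtbd11, a Kelch-repeat protein, was at 7.17, 7.31 and 8.01 against 3.03, 3.07 and 3.25 CPM (log2 -1.24). All NS libraries were close together in these 3 genes and above all CRS libraries, and without NS 2 and NS 3 the fold changes were -1.30, -1.10 and -1.12. Lamtor1, the membrane anchor of the Ragulator complex, which senses amino acids at the lysosome, was at 6.34, 10.4 and 8.01 against 3.23, 3.76 and 4.87 CPM, and its log2 fold change of -1.004 was -0.60 without NS 2 and NS 3.

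In the second kind, NS 1 sat near the CRS libraries. Bsg, which encodes basigin, the lactate transporter chaperone and Ok blood group antigen of red cells, was at 5.52, 17.7 and 6.86 against 4.24, 3.07 and 3.25 CPM (log2 -1.45, or -0.69 without NS 2). Foxn4, a forkhead factor of retina and spinal cord, was at 13.2, 20.7 and 59.5 against 9.69, 8.88 and 3.04 CPM (log2 -1.99, or -1.20 without NS 3). Grin1, the obligatory NMDA receptor subunit, was at 9.38, 62.1 and 27.5 against 9.49, 24.9 and 6.29 CPM, and its log2 fold change of -1.29 became 0.54 without NS 2 and NS 3. Rmrp, the RNA of the mitochondrial RNA-processing ribonuclease, was at 70.9, 265 and 193 against 50.9, 53.3 and 94.6 CPM (log2 -1.40, or -0.03 without both). Prickle1 of the planar polarity pathway and the olfactory receptor Olr141 overlapped between the groups too (log2 -2.18 and -1.46, or -1.04 and -0.39 without both). Asns, asparagine synthetase, was at 5.24, 9.14 and 19.4 against 2.83, 6.15 and 4.46 CPM (log2 -1.16, or -0.20 without both). Foxn4, Grin1 and Olr141 are best known from nervous and olfactory tissue, and Grin1 overlaps Lrrc26 in the GRCr8 annotation. With the strand setting of the counts unknown, reads of overlapping genes cannot be told apart. Overlaps are pointed out for some genes only. Other named genes, among them Pik3r5, Glul, Psme1, Ube2b and Xpo7, also overlap annotated genes. Of the 12 leading genes with negative fold changes, 11 kept the sign without NS 2 and NS 3, but 8 became over 1.5 times smaller. Of the 12 with positive ones, 12 kept it and 3 became that much smaller.

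**Figure D3:**
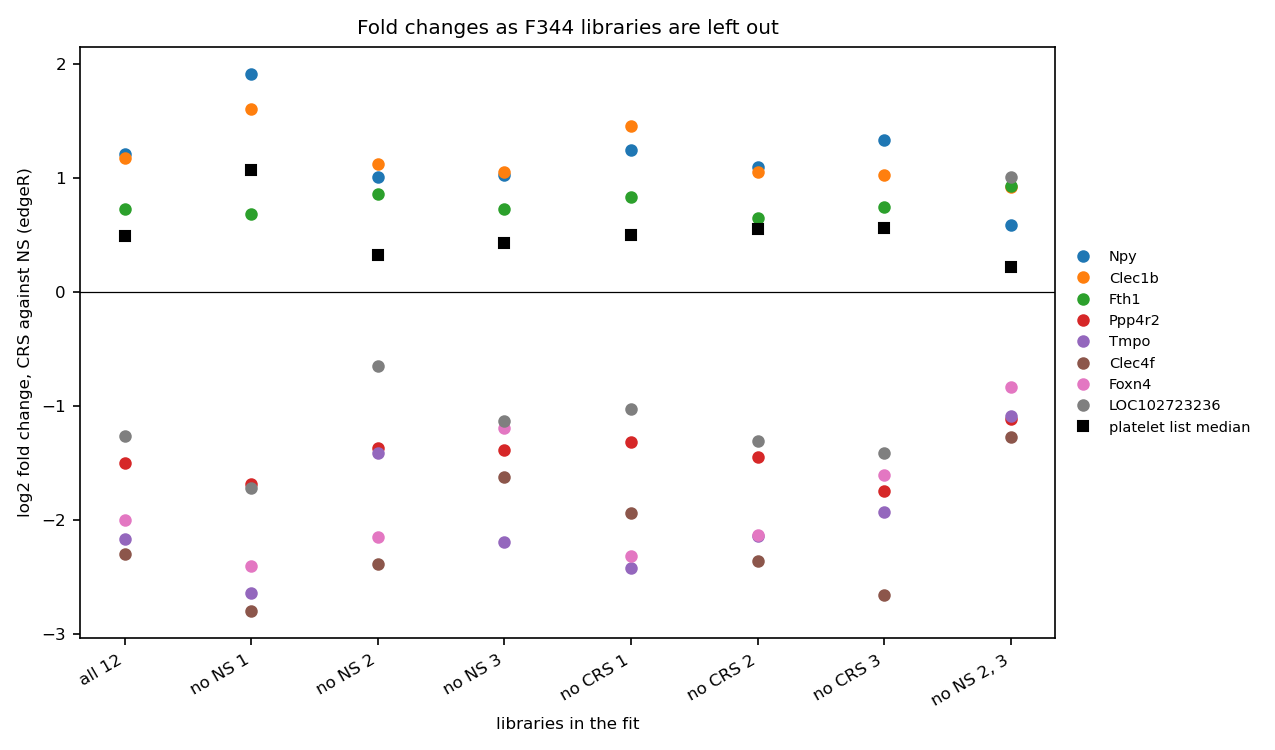
Log2 fold change of 8 genes and the median of the platelet list (edgeR) with all 12 libraries of the fit, without each F344 library, and without NS 2 and NS 3; 1 marker per gene and fit. Ppp4r2 stays between -1.74 and -1.11 and Npy between 0.59 and 1.91, while LOC102723236 is at -1.26 with all libraries and at 1.01 without NS 2 and NS 3.

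The abundant features LOC102723236 and LOC500035, which have no gene name, were also highest in NS 2 and NS 3. LOC102723236 was at 4453, 33700 and 23360 CPM without stress and at 5860, 9437 and 10410 CPM after CRS. Its log2 fold change of -1.26 was -1.71 and past the threshold without NS 1 (edgeR adjusted p = 0.0419) and turned to 1.01 without NS 2 and NS 3. LOC500035 was at 1088, 3115 and 2789 against 999.7, 1491 and 929.4 CPM (log2 -1.03, or 0.13 without NS 2 and NS 3).

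Platelet genes shared 1 direction. All 21 tested members of 34 had positive fold changes, against 51% of all tested genes, with a median of 0.50 against 0.02. None passed the threshold, 4 had an unadjusted p under 0.05 (background 1.55%), and in 7 all CRS libraries lay above all NS libraries (background 6.22%). Summed over the list, untested members included, platelet message was at 189, 112 and 103 CPM without stress and at 211, 212 and 209 CPM after CRS. The 3 CRS libraries were nearly equal, NS 1 lay just below them, and NS 2 and NS 3 lay at about the same lower level, on 183 and 90 counts. Without NS 2 and NS 3, 18 of 24 members were positive with a median of 0.22; without NS 1 the median was 1.07. With globin genes left out it was 0.49, with 21 of 21 positive. The positive fold changes of platelet genes were known when the list was made, so the list is no independent evidence of its direction.

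Among the surface receptors, Gp1ba and Clec1b had the highest fold changes. Gp1ba, the part of the glycoprotein Ib complex that grips von Willebrand factor, was at 3.31, 1.22 and 1.14 against 7.67, 4.096 and 4.67 CPM (log2 1.26, SE 0.517, or 2.21 without NS 1 and 0.82 without NS 2 and NS 3). Clec1b, the podoplanin receptor CLEC-2 that triggers platelet activation, was at 5.24, 3.66 and 2.29 against 5.85, 11.6 and 11.4 CPM (log2 1.17, SE 0.439), with NS 1 and CRS 1 nearly level. These are the 2 platelet genes whose promoters are printed above. Treml1, a receptor of platelet granules, and Gp5, which joins the glycoprotein Ib complex, did not overlap either (log2 0.71 and 0.56, or 1.30 and 1.09 without NS 1 and 0.39 and 0.28 without NS 2 and NS 3). The fibrinogen receptor subunit Itgb3, at 20.4, 8.53 and 8.01 against 18.6, 20.8 and 18.9 CPM, overlapped, with NS 1 inside the CRS range (log2 0.52).

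Genes for cargo and enzymes also had positive fold changes. Clu, the granule chaperone clusterin, was at 4.96, 0.609 and 2.29 against 8.48, 7.17 and 6.70 CPM (log2 1.23, or 2.61 without NS 1 and 0.65 without NS 2 and NS 3), and Clu overlaps Scara3 in the annotation as Gp1ba overlaps Chrne and Slc25a11. Vwf, the adhesive protein of platelet granules and endothelium, was at 10.5, 3.66 and 5.72 against 13.9, 14.7 and 12.0 CPM (log2 0.88, or 1.61 without NS 1 and 0.43 without NS 2 and NS 3). Ptgs1, the cyclooxygenase that feeds thromboxane synthesis, was at 3.03, 3.66 and 1.14 against 5.25, 4.44 and 6.90 CPM (log2 0.95). Ptgs1, Treml1 and Gp5 are named after their values were seen. Pf4, a platelet chemokine, was at 10.8, 18.3 and 11.4 against 19.4, 22.2 and 18.1 CPM, with CRS 3 a little below NS 2 (log2 0.56). The smallest fold change was that of Cd9, a tetraspanin found on many cells, at 0.08. Counts outside the 3 most abundant features, given above, were also higher in every CRS library than in every NS library. The TMM-rescaled totals overlapped, with NS 1 above CRS 2. The part of depth in the platelet values was not tested.

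**Figure D4:**
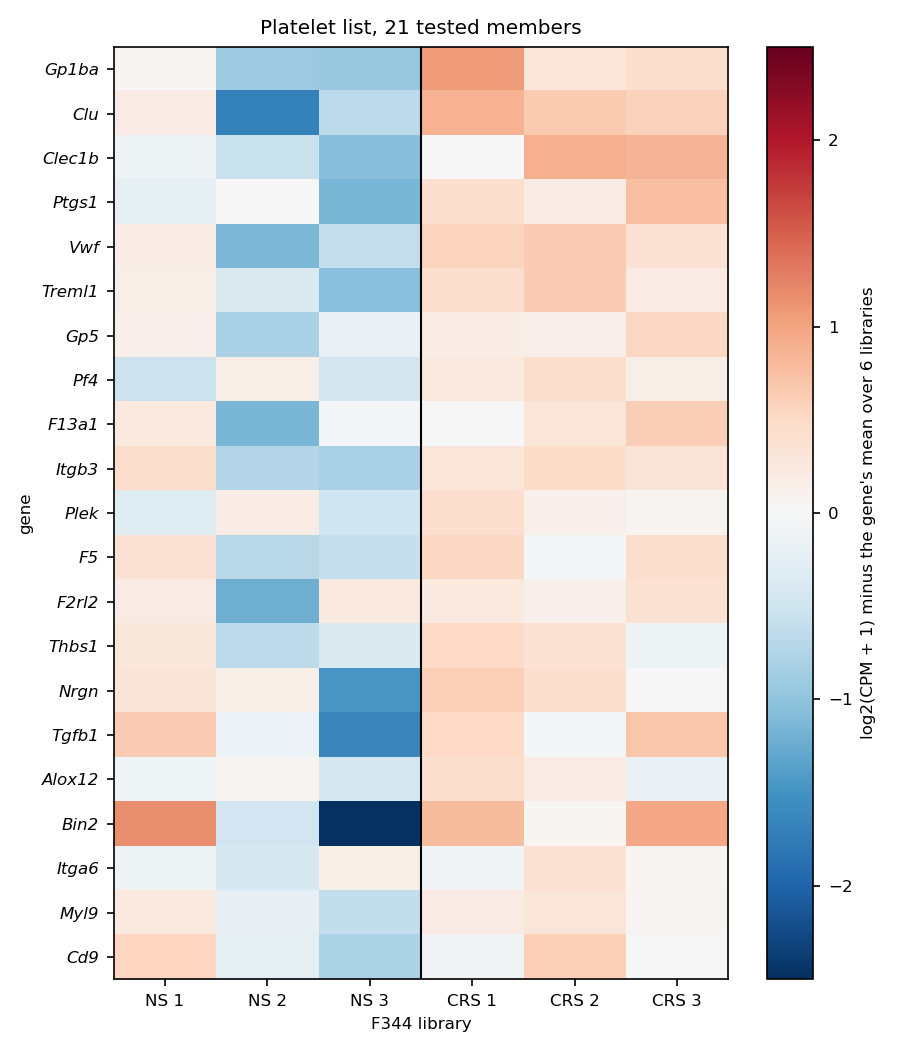
Levels of the 21 tested platelet genes in the 6 F344 libraries, as log2(CPM + 1) minus each gene's mean over the 6; rows are ordered by fold change. NS 2 and NS 3 are mostly below the mean (blue) and the 3 CRS libraries mostly above it (red), while NS 1 is mixed.

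Red cell genes showed no common direction, and what direction they had depended on which NS library stood for the group. Globin took 3.50%, 2.60% and 2.10% of gene counts without stress and 4.48%, 4.57% and 5.21% after CRS, so that the shares did not overlap (two-sided exact permutation p = 0.1, the smallest possible). On the TMM scale the globin genes overlapped, at 23620, 41780 and 40680 against 29450, 48750 and 40650 CPM in sum. Of the 6 tested globin genes 5 were positive (median 0.15); reads of these nearly identical genes may be split among them, which leaves single globin values uncertain. The red cell membrane list summed to 414, 942 and 805 against 663, 578 and 543 CPM. This put NS 1 below all CRS libraries in this sum and NS 2 and NS 3 above them. Slc4a1, the band 3 anion exchanger and the red cell's most abundant membrane protein, was at 140, 428 and 333 against 250, 200 and 201 CPM (log2 -0.46, or 0.70 without NS 2 and NS 3), and is named after its values were seen. Ankyrin Ank1 and the water channel Aqp1 were at -0.44 and -0.40, and Stom, stomatin, at 15.7, 10.96 and 16.0 against 22.8, 22.2 and 17.3 CPM (log2 0.54). In all, 7 of 17 membrane genes, 9 of 16 heme and iron genes and 14 of 22 erythroid maturation genes were positive. Without NS 2 and NS 3 these became 15 of 18, 16 of 18 and 23 of 23, with medians of 0.58, 0.63 and 0.59.

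Among heme and iron genes, fold changes lay on both sides of 0. Fth1, the ferritin heavy chain, was at 138, 170 and 146 CPM without stress and at 220, 285 and 249 CPM after CRS, with no overlap. Its log2 fold change was 0.73 (SE 0.303, edgeR adjusted p = 0.918) and stayed between 0.65 and 0.86 as single libraries were left out, with 0.93 without NS 2 and NS 3. Ncoa4, the receptor that delivers ferritin to lysosomes for breakdown, was at 167, 428 and 452 against 232, 249 and 251 CPM (log2 -0.51, or 0.62 without both). Alas2, which starts heme synthesis in red cells, was at 461, 912 and 704 against 547, 733 and 696 CPM (log2 -0.07). Abcb10, a mitochondrial transporter, was at -0.92, or -0.23 without NS 2 and NS 3. Of the maturation genes, Tal1, a blood stem and red cell transcription factor, was at 3.86, 1.83 and 3.43 against 8.48, 9.56 and 3.86 CPM (log2 1.17). Car2, carbonic anhydrase 2, was at 64.8, 119 and 106 against 128, 178 and 129 CPM, with no overlap (log2 0.60, or 0.38 without NS 1 and 1.23 without NS 2 and NS 3). Bnip3l and Xpo7, which act in clearing mitochondria and condensing the nucleus of maturing red cells, were at -0.43 and -0.64, and at 0.40 and 0.70 without NS 2 and NS 3.

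Lymphocyte and myeloid markers showed no shared direction. T cell genes split evenly, 9 positive and 9 negative of 18 tested (median -0.01), and their sums of 127, 104 and 119 against 120, 110 and 116 CPM overlapped fully. Within the T cell receptor complex, Cd3e, a signalling chain, was at 4.96, 3.66 and 4.58 against 2.62, 1.37 and 2.84 CPM with no overlap (log2 -0.91), while Cd3g was at 0.26 and the adaptors Lat and Skap1 at 0.64 and 0.89 (Skap1 1.41 without NS 1 and 0.58 without NS 2). Of 12 tested B cell genes 8 were negative (median -0.50, between -0.50 and -0.09 as single F344 libraries were left out, the latter without NS 3), among them the nuclear coactivator Pou2af1 at -0.73 and the intracellular Fc receptor-like Fcrla at -0.81 (-0.31 without NS 1). Cd79b, a chain of the B cell receptor, went the other way, at 6.07, 1.22 and 1.14 against 6.66, 6.49 and 5.07 CPM (log2 0.72, or 2.33 without NS 1 and 0.06 without NS 2 and NS 3). With a minimum count of 20 only 4 B cell genes remained, 3 of them positive. The B cell sums were 67.3, 50.0 and 52.6 against 53.1, 55.0 and 55.4 CPM. Only 5 of 28 natural killer and cytotoxic genes were tested, from -1.20 for Tbx21, the T-bet factor, to 0.68 for Tyrobp, an adaptor of activating receptors.

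Neutrophil genes summed to 105, 70.1 and 68.6 against 95.7, 87.4 and 77.9 CPM and monocyte genes to 122, 99.9 and 108 against 121, 115 and 137 CPM, both overlapping. Of the tested genes, 5 of 11 neutrophil and 6 of 13 monocyte genes were positive. Mmp9, the gelatinase of neutrophil granules, was at 4.41, 5.48 and 3.43 against 2.42, 0.341 and 0.812 CPM (log2 -1.79, edgeR adjusted p = 0.851, or -2.77 without CRS 1), from 28 NS and 17 CRS counts. S100a9, a calcium-binding alarmin that is among the most abundant neutrophil proteins, was at 13.5, 3.66 and 2.29 against 11.7, 11.3 and 9.34 CPM (log2 0.44). Lyz2, lysozyme, was at 51.9, 45.7 and 45.8 against 60.0, 56.3 and 67.6 CPM, with no overlap (log2 0.35). Csf1r, the growth factor receptor of monocytes, was at 10.5, 3.05 and 5.72 against 9.89, 15.0 and 10.96 CPM (log2 0.73, or 1.55 without NS 1, 0.43 without NS 2 and 0.24 without NS 2 and NS 3). Mpeg1, the pore-forming perforin-2, was at -0.72, or 0.11 without NS 2 and NS 3.

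One migration gene was steadier than most. S1pr1, the sphingosine-1-phosphate receptor that lets lymphocytes leave lymphoid organs for blood, was at 10.8, 10.96 and 10.3 CPM without stress and at 5.65, 5.80 and 6.29 CPM after CRS. Each group was nearly constant and the groups did not overlap. These levels rest on 39, 18 and 9 NS counts and 28, 17 and 31 CRS counts. Counts this low do not measure a level so closely. Its log2 fold change was -0.85 (SE 0.353, edgeR adjusted p = 0.918), between -0.89 and -0.80 as single libraries were left out and -0.79 without NS 2 and NS 3, on 66 NS and 76 CRS counts in all. Of the 33 tested migration and adhesion genes, 20 were positive and 13 negative (median 0.14). Cxcr4, the homing receptor for marrow, was at 4.96, 6.09 and 4.58 against 3.03, 2.39 and 4.06 CPM with no overlap (log2 -0.69). Tmsb10 and Was, which regulate actin, did not overlap in the opposite direction (log2 0.65 and 1.35), with Was on 7 NS and 37 CRS counts.

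**Figure D5:**
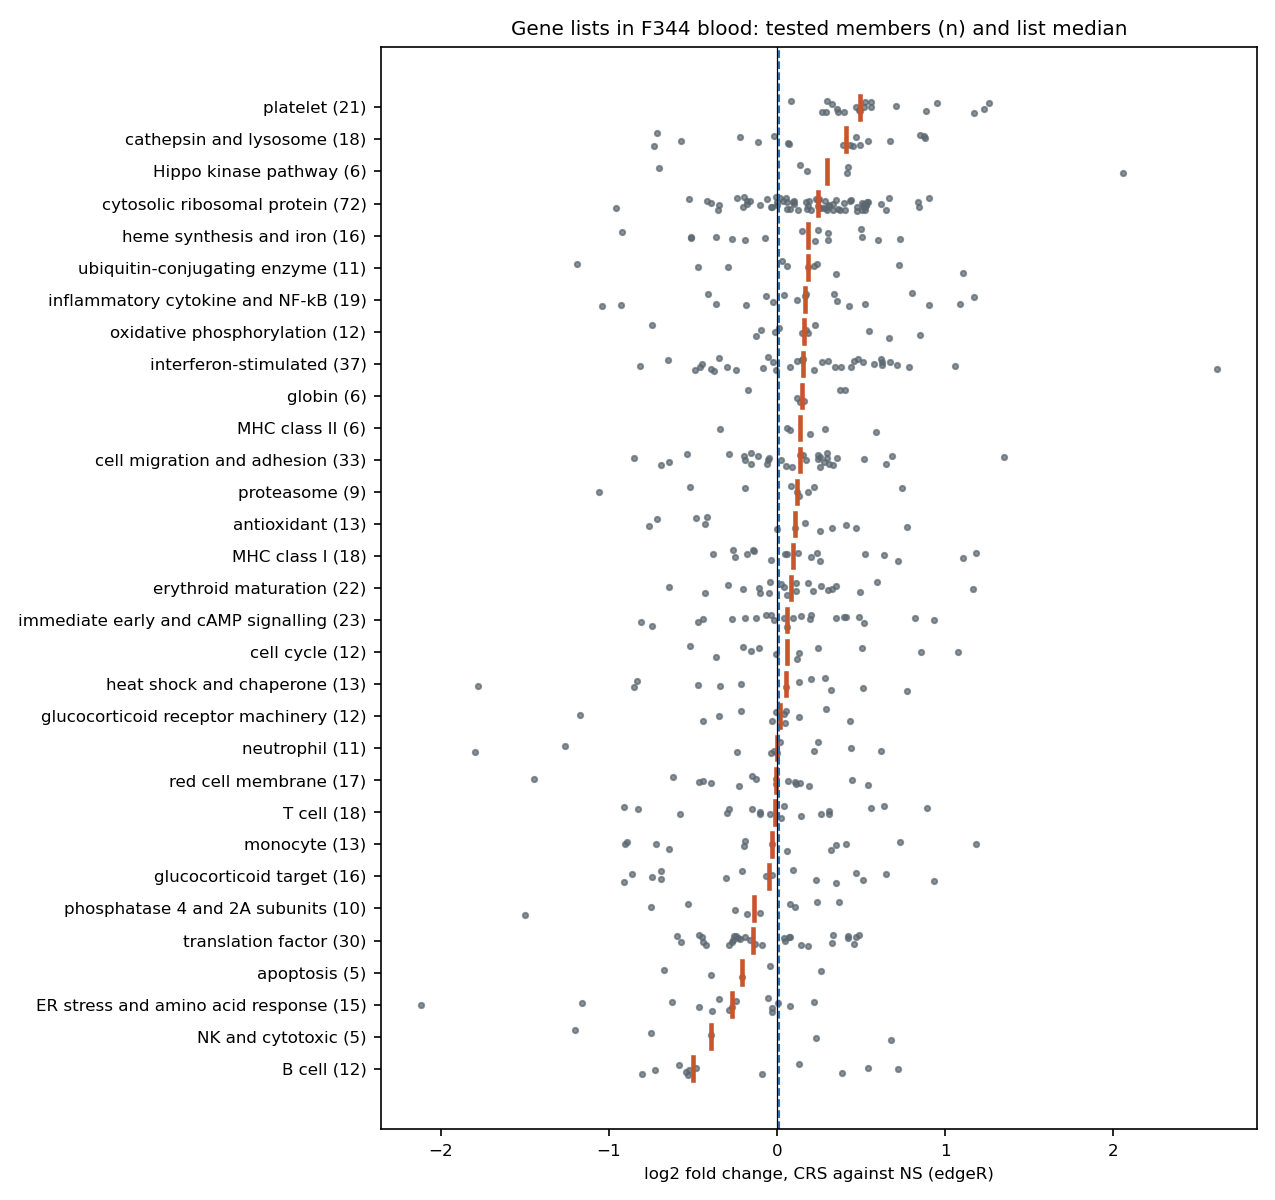
Log2 fold change of CRS against NS (edgeR) for each tested member (points) of 31 gene lists with at least 5 tested members, given in brackets; bars are list medians and the dashed line is the median of all tested genes, 0.02. All 21 platelet points lie right of 0, the B cell median lies farthest left at -0.50 (-0.09 without NS 3), and most lists straddle 0.

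Antigen presentation genes included both non-overlapping and near-equal levels. Tap1, a chain of the transporter that feeds peptides to class I molecules, was at 4.69, 3.66 and 2.29 against 8.68, 5.80 and 10.6 CPM (log2 1.11, SE 0.427), with no overlap. Tapbpl, a tapasin-like peptide editor, was at 1.66, 0 and 1.14 against 3.43, 2.05 and 2.03 CPM (log2 1.19, or 2.57 without NS 1 and 0.68 without NS 2 and NS 3), from 7 and 33 counts, and Tapbp, tapasin itself, was at 0.64. The heavy chain genes RT1-A1, RT1-A2 and RT1-A3 were at 0.05, -0.14 and -0.14, and the light chain B2m at 0.25. RT1 genes are close copies and their single values are uncertain. Of 18 tested class I genes, 11 were positive. Of 6 tested class II genes, 5 were positive (median 0.14), led by Cd74, the invariant chain, at 36.4, 14.6 and 10.3 against 37.8, 28.3 and 34.1 CPM. NS 1 lay within the Cd74 range of the CRS group, and the log2 fold change of 0.59 became -0.05 without NS 2 and NS 3.

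Interferon-stimulated genes included Oasl, whose fold change was the highest of all, but as a list they were mixed. Oasl, an antiviral protein of the oligoadenylate synthetase family, was at 0.552, 0.609 and 0 against 4.24, 2.73 and 2.44 CPM (log2 2.62, SE 0.775, edgeR adjusted p = 0.530). That rests on 3 NS and 41 CRS counts. Irf7, the regulator that drives interferon alpha genes, was better measured, at 56.0, 59.7 and 50.3 against 77.7, 87.1 and 101 CPM. The groups did not overlap in Irf7, and its log2 fold change of 0.67 (SE 0.289, edgeR adjusted p = 0.918) stayed between 0.58 and 0.77 over the single leave-outs and was 0.73 without NS 2 and NS 3. Oas3, another oligoadenylate synthetase, was at 3.03, 0 and 3.43 against 6.46, 3.07 and 4.06 CPM (log2 1.06, or 1.91 without NS 1 and 0.60 without NS 2). Others of the same pathway lay at or below 0: Ifit1 was at -0.01, and Rsad2, the antiviral enzyme viperin, at 143, 325 and 287 against 182, 204 and 163 CPM (log2 -0.46, or 0.42 without NS 2 and NS 3). In all, 23 of 37 tested members were positive (median 0.16), against 51% of all tested genes. Without overlap, 5 lay above NS (background 6.22%) and 0 below it (background 5.68%). An unadjusted edgeR p under 0.05 was seen in 2 members, with positive fold changes (background 1.55%). The list sums of 376, 561 and 490 against 457, 476 and 459 CPM overlapped.

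For genes known to answer glucocorticoids directly, no shared difference was detectable at this depth. Fkbp5, a chaperone that dampens the receptor and is a standard readout of it, was at 3.86, 5.48 and 4.58 against 3.43, 7.51 and 4.06 CPM (log2 0.09, SE 0.473). Tsc22d3, the leucine zipper GILZ, was at 9.65, 14.01 and 17.2 against 9.08, 9.22 and 12.8 CPM (log2 -0.30, SE 0.368). With errors of this size, moderate differences in Fkbp5 and Tsc22d3 could not be detected. Dusp1, a phosphatase that ends MAP kinase signals, was at 10.2, 12.2 and 22.9 against 7.47, 8.19 and 10.2 CPM, with no overlap by a small margin (log2 -0.69, or -0.33 without NS 3 and -0.17 without NS 2 and NS 3). Cebpb and Tgfbr1, a transcription factor and a TGF-beta receptor, also lay below NS without overlap (log2 -0.91 and -0.86). Cebpb was at -0.38 without NS 1, and Tgfbr1 at -0.20 without NS 2 and NS 3. Glul, glutamine synthetase, was at 89.4, 123 and 132 against 151, 183 and 139 CPM, the 1 target without overlap above NS (log2 0.47, or 0.89 without NS 2 and NS 3). Of 16 tested targets 7 were positive and 9 negative (median -0.05), and 4 lay below NS without overlap against a background of 5.68%. Zbtb16, a strongly induced target in many cells, had 1 count in all NS libraries and 2 in all CRS libraries and was not tested.

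The receptor and its partners were as mixed. Nr3c1, the glucocorticoid receptor, was at 5.79, 4.87 and 6.86 against 3.43, 4.096 and 5.07 CPM, with CRS 3 above NS 2 (log2 -0.44, SE 0.397). Of 12 tested genes for the receptor, its chaperones and cofactors, 6 were positive and 6 negative (median 0.02), and 0 were without overlap. Per1, a clock gene that glucocorticoids induce, was at 2.21, 3.05 and 1.14 against 4.44, 3.41 and 2.84 CPM (log2 0.65, SE 0.566). Tef, another clock-output factor, was at 3.31, 3.05 and 4.58 against 1.21, 2.05 and 1.22 CPM, with no overlap (log2 -1.26). Of 23 tested immediate early and cAMP genes, 13 were positive. Klf2, a factor of lymphocyte quiescence, was at 8.83, 3.05 and 6.86 against 19.99, 10.2 and 7.31 CPM (log2 0.94, or 0.41 without CRS 1), though Klf2 overlaps Eps15l1 in the annotation. Gnas, the stimulatory G protein through which beta-adrenergic receptors signal, was at 28.4, 28.6 and 32.0 against 33.7, 47.5 and 45.9 CPM (log2 0.52), and Prkar1a, the inhibitory subunit of protein kinase A, was at 5.79, 4.87 and 5.72 against 3.03, 3.07 and 3.25 CPM (log2 -0.81). The groups did not overlap in Gnas or Prkar1a.

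Inflammatory signalling genes were measured for receptors and adaptors more than for cytokines. Tnfrsf1a, the main receptor of tumour necrosis factor, was at 1.93, 2.44 and 2.29 against 5.25, 4.44 and 4.06 CPM (log2 1.09, SE 0.470). Myd88, the adaptor of Toll-like and interleukin-1 receptors, was at 1.93, 1.22 and 2.29 against 4.44, 3.07 and 4.46 CPM (log2 1.17, SE 0.525), and Myd88 overlaps Acaa1a in the annotation. Both genes were without overlap, and neither passed the threshold (edgeR adjusted p = 0.918 for each). Tnfrsf1a rests on 13 NS and 59 CRS counts, and Myd88 on 11 and 53. Their fold changes were 1.30 and 1.13 without NS 2 and NS 3. Il1b, the cytokine interleukin-1 beta, was at 8.55, 6.70 and 12.6 against 11.3, 10.2 and 5.89 CPM, fully overlapping (log2 0.04, SE 0.378). Il6st, the shared receptor chain gp130, was at -0.93 (-0.60 without CRS 2) and Pycard, the inflammasome adaptor ASC, at -1.04 (-0.36 without NS 1). Of 19 tested members, 12 were positive (median 0.17), 3 lay above NS without overlap (background 6.22%) and 2 below it (background 5.68%).

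Among stress response genes, those of the endoplasmic reticulum had mostly negative fold changes. Of 15 tested genes of endoplasmic reticulum stress and the amino acid response, 12 had negative fold changes (median -0.27). An unadjusted edgeR p under 0.05 was seen in 2 of these (background 3.13%). Pdia4, a disulfide isomerase of the endoplasmic reticulum, was at 6.34, 6.70 and 1.14 against 1.21, 2.05 and 0.609 CPM (log2 -2.12, SE 0.643, edgeR adjusted p = 0.530), with NS 3, at 1 count, inside the CRS range. Without NS 2 and NS 3 its log2 fold change was -2.30, but the list had 13 of 22 positive and a median of 0.07. Atf4, the factor that drives Asns, was at 3.31, 8.53 and 3.43 against 2.83, 3.41 and 3.45 CPM, so that only NS 2 stood out (log2 -0.62, or -0.02 without it). Of 13 heat shock and chaperone genes, 6 were negative, among them Hspa9, the mitochondrial chaperone mortalin, at 3.86, 1.83 and 8.01 against 0.808, 1.02 and 1.62 CPM (log2 -1.78). The inducible Hspa1b was also without overlap (log2 -0.85, or -0.53 without CRS 2), and the constitutive Hspa8 was at 0.05. Among 13 antioxidant genes, Gclm, the modifier subunit of the first glutathione enzyme, was at 8.27, 8.53 and 13.7 against 5.85, 5.80 and 5.28 CPM (log2 -0.76, or -0.48 without NS 2 and NS 3). Sod2, the mitochondrial superoxide dismutase, was at 6.34, 1.22 and 3.43 against 6.66, 6.83 and 8.12 CPM (log2 0.78, or 1.84 without NS 1, 0.42 without NS 2 and 0.26 without NS 2 and NS 3). Neither overlapped between the groups, and they lay on opposite sides.

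Most cytosolic ribosomal protein genes had positive fold changes. Of 72 tested members of 82, 54 were positive (median 0.24), against 51% of all tested genes. Without overlap, 8 lay above NS (background 6.22%) and 0 below it (background 5.68%). Of the 72 members, 1 had an unadjusted edgeR p under 0.05, with a positive fold change (background 1.55%). Their sums were 876, 1046 and 854.5 CPM without stress and 1102, 1073 and 1078 CPM after CRS, so that all CRS libraries lay above NS on this scale, NS 2 only narrowly. As a share of counts outside the 3 most abundant features they overlapped, at 1.44%, 0.878% and 0.823% against 1.58%, 1.11% and 1.26%, with NS 1 above CRS 2 and CRS 3. Without NS 2 and NS 3, 65 of 76 were positive with a median of 0.35, and without NS 1, 46 of 72 with a median of 0.145. With a minimum count of 20 it was 44 of 63 (median 0.178). Rps9, of the small subunit, was at 5.79, 6.09 and 13.7 against 14.9, 14.3 and 13.4 CPM (log2 0.90, or 1.36 without NS 2 and NS 3), but Rps9 overlaps Pirb in the annotation. Rplp0, of the ribosomal stalk, was at 70.6, 49.3 and 61.8 against 103, 85.0 and 70.8 CPM, with no overlap (log2 0.51). At the other end, Rpl27 was at -0.95, or 0.13 without NS 2 and NS 3. Translation factors did not follow, with 13 of 30 positive (median -0.15). Ribosomal protein genes have many processed copies in the genome, so counting may have divided their reads.

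The other housekeeping lists had few tested members. Of 18 lysosomal genes 12 were positive (median 0.41, or 0.14 without NS 2), and with a minimum count of 20 it was 6 of 12 (median 0.16). Granulin, Grn, was at 5.24, 1.22 and 10.3 against 10.9, 6.15 and 9.54 CPM (log2 0.85, or 0.45 without NS 2). Ctse, the cathepsin of red cells, was at 6.62, 9.75 and 10.3 against 5.05, 5.80 and 4.67 CPM (log2 -0.71, or -0.30 without NS 2 and NS 3). Ube2b, a ubiquitin-conjugating enzyme of DNA damage tolerance, was at 3.31, 4.87 and 6.86 against 1.62, 2.05 and 2.23 CPM (log2 -1.19, or -0.68 without NS 2 and NS 3), and Ube2c, the mitotic one, was at 3.31, 5.48 and 5.72 against 6.46, 8.88 and 7.10 CPM (log2 0.73, or 0.43 without NS 1 and 1.22 without NS 2 and NS 3). Neither overlapped between groups. Psme1, the interferon-induced proteasome activator, and Ndufa1, a subunit of respiratory complex I, lay above NS without overlap (log2 0.74 and 0.85). Oxidative phosphorylation had 12 of 91 genes tested, 8 of them positive, and 0 of 71 mitochondrial ribosome genes could be tested. Apaf1, the scaffold of the apoptosome, was at 5.79, 7.31 and 6.86 against 3.63, 4.096 and 4.46 CPM, with no overlap (log2 -0.67, or -0.44 without NS 2 and NS 3). Gap43, a growth cone protein of nerves that led the brain list, was at 6.89, 4.26 and 10.3 against 2.02, 3.76 and 4.26 CPM (log2 -1.03). NS 2 and CRS 3 were all but equal in Gap43, and the 18 brain and nerve genes summed to 21.3 to 22.3 CPM without stress and 16.8 to 19.1 CPM after CRS.

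The response in F344 was set against that in WKY rats, which had the same treatments, by the difference between the 2 fold changes. For this difference, 0 of 2781 genes (0%) passed with edgeR and 106 had an unadjusted p under 0.05. DESeq2 and limma-voom passed 0 too, with 69 and 168 genes at that unadjusted level. With the scaling by totals outside the 3 top features, or with no count filter, edgeR called 3 genes, Sav1, Foxe1 and Sema4g. Sav1 came closest: it was at 1.79 ± 1.72 and 6.93 ± 0.990 CPM (SD, n = 3) in NS and CRS of F344 and at means of 16.3 and 3.46 CPM in WKY. The difference in log2 fold change was 4.198 (SE 0.870, edgeR adjusted p = 0.0699). Next were Foxe1, a thyroid forkhead factor, at 3.23 (edgeR adjusted p = 0.128), and Sema4g, a semaphorin, at 3.43 (edgeR adjusted p = 0.200). For Npy the difference was 0.15 (SE 0.487), with WKY means of 31.5 and 66.3 CPM, and for Ppp4r2 it was -0.32 (SE 0.531), with WKY means of 12.8 and 5.46 CPM. The strain differences of S1pr1 and Gp1ba were -0.84 (SE 0.497) and 1.16 (SE 0.738) and did not pass. Errors of this size leave smaller strain differences undetectable with 3 libraries a group.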

How the data were processed

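Whole blood RNA libraries of male F344 rats, 3 after CRS and 3 without stress, were compared, and the 6 WKY libraries entered the same fit. The deposited files hold whole-number read counts per gene symbol, not normalised by the authors. Per the submitters' processing notes, cutadapt 1.14, TopHat2 2.1.0, Cufflinks 2.2.1 and build rn6 were used, with no role stated for each. Which program counted reads, with which gene models and strand option, is not given in the sources used here. The 5 rows that name no gene took 83.5% to 86.3% of counts in the F344 libraries, 80.4% to 83.3% as ambiguous, and stayed out. Leaving ambiguous reads out can lower the counts of genes that overlap or resemble others. Gene counts were 1691956 to 3846263 per F344 library, and errors from depth cover counting only.

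The main test was edgeR 4.0.16 under R 4.3.3 (glmQLFit, glmQLFTest, TMM, filterByExpr with a minimum count of 10), with all 12 libraries in 1 fit of 4 group means and Benjamini-Hochberg adjustment over 2781 genes at 0.05. TMM put the effective totals between 874201 and 4953572 in F344, so CPM of the most abundant features can exceed those of a raw scale. Each SE is the fold change divided by the root of F. Alternatives were DESeq2 1.42.0, limma 3.58.1 (voom with quality weights), other scalings and filters, F344 libraries alone, globin or the 3 top features left out, a replicate block, and leave-outs.

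Named genes were those past the threshold in F344 under any setting. Among informative symbols averaging at least 5 CPM, they also were the 12 smallest p-values and the 8 largest fold changes without overlap in each direction. Further named genes were at most 3 from each described list on either side, 10 genes always given, and genes marked as named after their values were seen. Other list members are given by fold change as examples chosen with values known. The members and the 40 gene lists were chosen with earlier results of these data known. Lists were described by counts, medians and summed CPM, with no test. Of the 17337 symbols, 14821 are symbols in a RefSeq table of GRCr8 and 2125 more are synonyms there; it served for promoters and overlapping neighbours. Simulated counts with known changes were used to test the edgeR script. Some genes that the naming rule took are not reported here.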

Additional observations from a re-analysis of the deposited data

How the results depend on the processing

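The count of genes called for CRS in F344 was 0, and it was 2 with limma-voom (Npy, Ppp4r2), 5 with no filter (Chrna10, Krt73, Npy, Sav1, Timm10b), and 0 to 5 when single libraries were left out; the 5 came without NS 1 (Clec4f, LOC102723236, Npy, Timm10b, Tmpo). It was 0 under the other alternatives run. The strain difference gave 0 genes, 3 when scaled by totals outside the 3 top features, 3 with no filter, 1 with the replicate block, 1 without NS 2 and NS 3, and 0 to 2 in single leave-outs. Removing the filter moved the median fold change of the tested genes to 0.36. Genes at an unadjusted p under 0.05 were 33.1% positive, against 43.7% with that total scaling, 63.7% with no filter, 42.4% with the replicate block, 50.6% without NS 1, 53.9% without NS 2 and 72.2% without NS 2 and NS 3. Of 100 genes taken by the naming rule or named after their values were seen, 85 kept 1 direction throughout. Without NS 2 and NS 3, log2 fold changes turned to 0.025 (Atf4), 0.40 (Bnip3l), -0.052 (Cd74), 0.54 (Grin1), 1.01 (LOC102723236), 0.13 (LOC500035), 0.11 (Mpeg1), 0.62 (Ncoa4), 0.13 (Rpl27), 0.42 (Rsad2), 0.70 (Slc4a1), 0.18 (Tsc22d3) and 0.70 (Xpo7). With no filter Bnip3l was at 0.004 and Tsc22d3 at 0.079. Fkbp5 was at -0.073 with limma-voom and -0.25 to 0.32 in single leave-outs, and Il1b at -0.14 with limma-voom, -0.039 with a minimum count of 20 and -0.16 to 0.30 in leave-outs. The cause was not tested. With NS 1 alone, the single library is taken to vary as libraries of the other groups do. Whether replicate numbers pair the libraries cannot be told from their correlations. Same-numbered deviations correlated at 0.21, 0.12 and 0.04, and differently numbered ones at -0.18 to 0.05. NS 1 and NS 2 correlated best with their own number, and NS 3 with CRS 2 (0.05). With the replicate block, 0 genes were called in F344. Depth in NS 3 (90796 counts outside the 3 top features) limited low genes.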
